A study of Mus musculus with 24 samples.

Results

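The genes described here are Acan, Hapln1, Matn1, Matn2, Matn3, Matn4, Comp, Clec3a, Ucma and Cilp, which encode aggrecan, link protein, the matrilins, cartilage oligomeric matrix protein and other secreted proteins of cartilage matrix. They were chosen by symbol, and each of the 10 had 1 row among the 52178 genes of the count table. All 10 passed the filter on low counts, which kept 21283 genes. RNA was sequenced from explants of cartilage from C57/BL6 mice (C57/BL6J in the study's methods). Hip caps, the cartilage of the femoral head, came from male mice aged 4 weeks, and metatarsals, the cartilage rudiments of the foot bones, came from embryos at day 15. Each explant was cultured for 24 hours, held for 1 hour at a hydrostatic pressure of 0 MPa (control), 5 MPa or 50 MPa, and cultured for another 24 hours (the labels write the unit as mPa, the study's methods as MPa). Every one of the 6 groups had 4 libraries, each made from 2 pooled hip caps of 1 mouse or from 6 pooled metatarsals. Libraries are named below by tissue (H or M), pressure (C for control, 5 or 50) and replicate number.

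Aggrecan is a very large proteoglycan whose chondroitin sulfate chains draw water into cartilage and let it resist compression. It binds hyaluronan, and link protein, the product of Hapln1, locks that bond. Matrilins are adaptor proteins that tie proteoglycans and collagen fibrils together: Matn1 and Matn3 are known mainly from cartilage, Matn2 and Matn4 from a wider range of connective tissues. COMP, a member of the thrombospondin family, binds collagens and other matrix proteins. Clec3a encodes a C-type lectin of cartilage, Ucma a small protein with gamma-carboxylated residues first known from growth plate cartilage, and Cilp the cartilage intermediate layer protein.

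In the GRCm38 annotation all 10 are protein-coding genes. Acan lies at chr7:79053483-79115099, Hapln1 at chr13:89539796-89611652, Comp at chr8:70373558-70382066 and Cilp at chr9:65265180-65280605. Matn2 shares exon sequence with 9430069I07Rik on the opposite strand, and Matn4 with Rbpjl on the opposite strand. The labels call 6 of the 24 libraries unstranded, so reads of those pairs may have been mixed and the values of Matn2 and Matn4 are less certain for it.

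Promoters are shown for Acan, Matn3, Hapln1 and Ucma because these genes were high in the same tissue while their start regions differed in base composition. Each run is the 250 bases before the start site in the GRCm38.p6 RefSeq table, 5′ to 3′ on the gene's strand, with capitals marking GGGCGG on either strand. They lie on the plus strand at chr7:79052976-79053225 (Acan), chr12:8947679-8947928 (Matn3), chr13:89540386-89540635 (Hapln1) and chr2:4975872-4976121 (Ucma).
Acan: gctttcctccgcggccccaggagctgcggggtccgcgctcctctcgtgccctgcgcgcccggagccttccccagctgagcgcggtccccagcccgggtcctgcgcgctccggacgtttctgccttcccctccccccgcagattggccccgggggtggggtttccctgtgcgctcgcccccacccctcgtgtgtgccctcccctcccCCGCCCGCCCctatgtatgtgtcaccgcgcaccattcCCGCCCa
Matn3: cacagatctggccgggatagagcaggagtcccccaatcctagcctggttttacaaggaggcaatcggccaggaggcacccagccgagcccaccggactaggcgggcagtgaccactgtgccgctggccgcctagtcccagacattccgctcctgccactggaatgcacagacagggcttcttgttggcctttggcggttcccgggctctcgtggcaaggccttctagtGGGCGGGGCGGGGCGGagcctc
Hapln1: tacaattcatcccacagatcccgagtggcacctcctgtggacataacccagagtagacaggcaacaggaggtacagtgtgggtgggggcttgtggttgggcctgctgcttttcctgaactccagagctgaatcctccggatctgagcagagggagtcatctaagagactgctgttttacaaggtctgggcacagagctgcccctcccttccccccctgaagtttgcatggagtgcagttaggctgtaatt
Ucma: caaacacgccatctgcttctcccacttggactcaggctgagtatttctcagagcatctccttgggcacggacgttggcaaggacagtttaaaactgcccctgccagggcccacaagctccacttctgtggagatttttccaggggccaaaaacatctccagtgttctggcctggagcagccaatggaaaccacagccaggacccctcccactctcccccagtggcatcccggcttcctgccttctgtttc
GGGCGG, the letters of a GC box, stood 3 times before Acan and 3 times before Matn3, with overlaps, and not before Hapln1 or Ucma. It stood once before Matn1 and once before the second start of Matn4, and 32.7% of 32851 promoters of the same length held it. G and C made up 74.4% of the Acan run, 65.2% of the Matn3 run, 54.4% of the Hapln1 run and 56.4% of the Ucma run. AACAAT and ACAAAG, letters that SOX factors are known to bind, were found on neither strand of any of the 8 promoters of the 7 genes with an entry, against 9.4% and 16.5% of all promoters. TATAAA was not found in them either, against 12.4% of all. Matn2, Comp and Clec3a had no entry.

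Library totals ran from 4185557 to 25104484 estimated counts. The 10 genes took 0.418% to 1.23% of the counts in the hip cap libraries used and 0.0583% to 0.133% in the metatarsals. The RNA was partly degraded by the study's own account. Libraries HC4 and H502 were left out of its statistics and are left out of the tests here. The chondrocyte label was checked with 9 markers, of which none was at 0 in any group used: their summed level was 41620 to 68820 CPM, the estimated counts scaled to 1000000 per library, in hip cap controls and 1852 to 4835 CPM in metatarsal controls. Skeletal muscle markers summed to 1039 to 2597 CPM in the metatarsal controls against 9.51 to 15.6 CPM in the hip caps, and 8 tendon, perichondrium and fibroblast markers to 5273 to 8178 CPM against 1283 to 2259 CPM. Some other marker sums were higher in the hip cap controls, while the osteoblast sums (1617 to 2668 CPM against 2300 to 4501 CPM) and the endothelial sums overlapped. The hypertrophic chondrocyte markers stood at 9118 to 10490 CPM against 44.79 to 129.4 CPM in metatarsals, the superficial zone markers at 2556 to 4457 CPM against 124.4 to 356.2 CPM, the osteoclast markers at 133.4 to 242.3 CPM against 25.84 to 41.11 CPM, the macrophage markers at 105.4 to 313.1 CPM against 54.4 to 84.84 CPM, and the Schwann and nerve markers at 113.3 to 196.2 CPM against 18.57 to 26.3 CPM. A sum can rest on few abundant genes. Tested singly in edgeR at an adjusted p of at most 0.05, 0 of 6 macrophage markers were higher in hip caps and 1 was lower. Their median log2 fold change was -0.55. Of the 4 superficial zone markers 1 was higher and 1 lower, with a median of -0.48. All 5 hypertrophic chondrocyte markers were higher. Of the 6 osteoblast markers tested 4 were higher and 1 lower, with a median of 3.11, although their sums overlapped. The part of these cells in the results below was not tested. In such bulk samples, fewer chondrocytes and less RNA of a gene per chondrocyte cannot be told apart.

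The first comparison asked how unpressurised hip caps differed from unpressurised metatarsals. In hip caps 8 of the genes were higher and 2, Matn2 and Matn4, were lower. All 10 passed an adjusted p of at most 0.05 (edgeR quasi-likelihood test, Benjamini-Hochberg over all genes), against 29.9% of all genes tested (14.1% higher and 15.9% lower). Among the libraries used, the groups overlapped for no member, while 19.6% of all genes lay wholly above and 22.8% wholly below. Tissue, age, culture medium and, apart from MC1, sequencing run differed together here, so the part of each cannot be told apart. The hip caps were all from males, and the sex of the embryos is not given, so sex may differ too. Run was a term of the fit, but among metatarsals only MC1 and M504 shared the run of these hip caps. Without MC1, 2570 genes passed the threshold in place of 6372.

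Aggrecan was the most abundant of the 10 by count. Its level was 10400, 6417 and 9560 CPM in HC1, HC2 and HC3, and 254.4, 209.1, 553.8 and 207.0 CPM in MC1 to MC4. All hip caps lay above all metatarsals, and MC3 stood above the other metatarsals. The log2 fold change was 4.81 (SE 0.54, adjusted p = 1.12e-06), or 28.1-fold. Hapln1 moved with its partner: it stood at 1891, 2337 and 1547 CPM in the hip caps and at 172.1, 105.4, 197.0 and 107.3 CPM in the metatarsals, 12.9-fold higher (log2 3.69, SE 0.34, adjusted p = 7.72e-08).

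The matrilins split into pairs. Matn1 was at 262.0, 278.1 and 402.2 CPM in hip caps and at 22.97, 17.06, 71.19 and 21.62 CPM in metatarsals, a log2 difference of 3.46 (SE 0.73, adjusted p = 0.00213). Without MC1 that difference was 3.31 and its adjusted p 0.072. Matn3 was at 549.2, 535.3 and 664.5 CPM against 15.12, 9.843, 27.22 and 11.19 CPM, a log2 difference of 5.12 (SE 0.58, adjusted p = 3.09e-06). These are the matrilins known mainly from cartilage, and the hip caps were the higher group for both. Matn2 went the other way, with 30.17, 20.69 and 31.15 CPM in hip caps and 93.78, 95.65, 95.66 and 143.4 CPM in metatarsals, 3.83-fold lower (log2 -1.94, SE 0.26, adjusted p = 1.01e-05). Matn4 stood at 16.85, 14.16 and 21.05 CPM in hip caps and at 43.45, 48.47, 76.05 and 53.73 CPM in metatarsals, 2.94-fold lower (log2 -1.55, SE 0.28, adjusted p = 0.000242).

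COMP and the smaller matrix proteins were all higher in hip caps. Comp was at 3640, 2383 and 4384 CPM there and at 44.98, 42.53, 112.7 and 45.01 CPM in metatarsals, 58.1-fold higher (log2 5.86, SE 0.47, adjusted p = 1.28e-08). Clec3a had the widest difference of the 10, with 460.1, 280.5 and 566.7 CPM in hip caps against 0.383, 0.161, 3.89 and 0.540 CPM in metatarsals (log2 8.0, SE 1.14, adjusted p = 7.48e-05). The metatarsal control values rest on 2 to 68 counts a library, so the size of that fold is uncertain, with a 95% interval of 5.57 to 10.42 on the log2 scale. Ucma was at 35.06, 52.35 and 34.49 CPM against 1.91, 1.02, 3.15 and 1.24 CPM (log2 4.24, SE 0.56, adjusted p = 1.51e-05). Cilp was at 266.1, 95.79 and 351.3 CPM against 13.97, 11.02, 15.55 and 15.83 CPM (log2 4.04, SE 0.67, adjusted p = 0.000257). Cilp varied most among the hip cap controls, with a coefficient of variation of 54.7%.

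**Figure D1:**
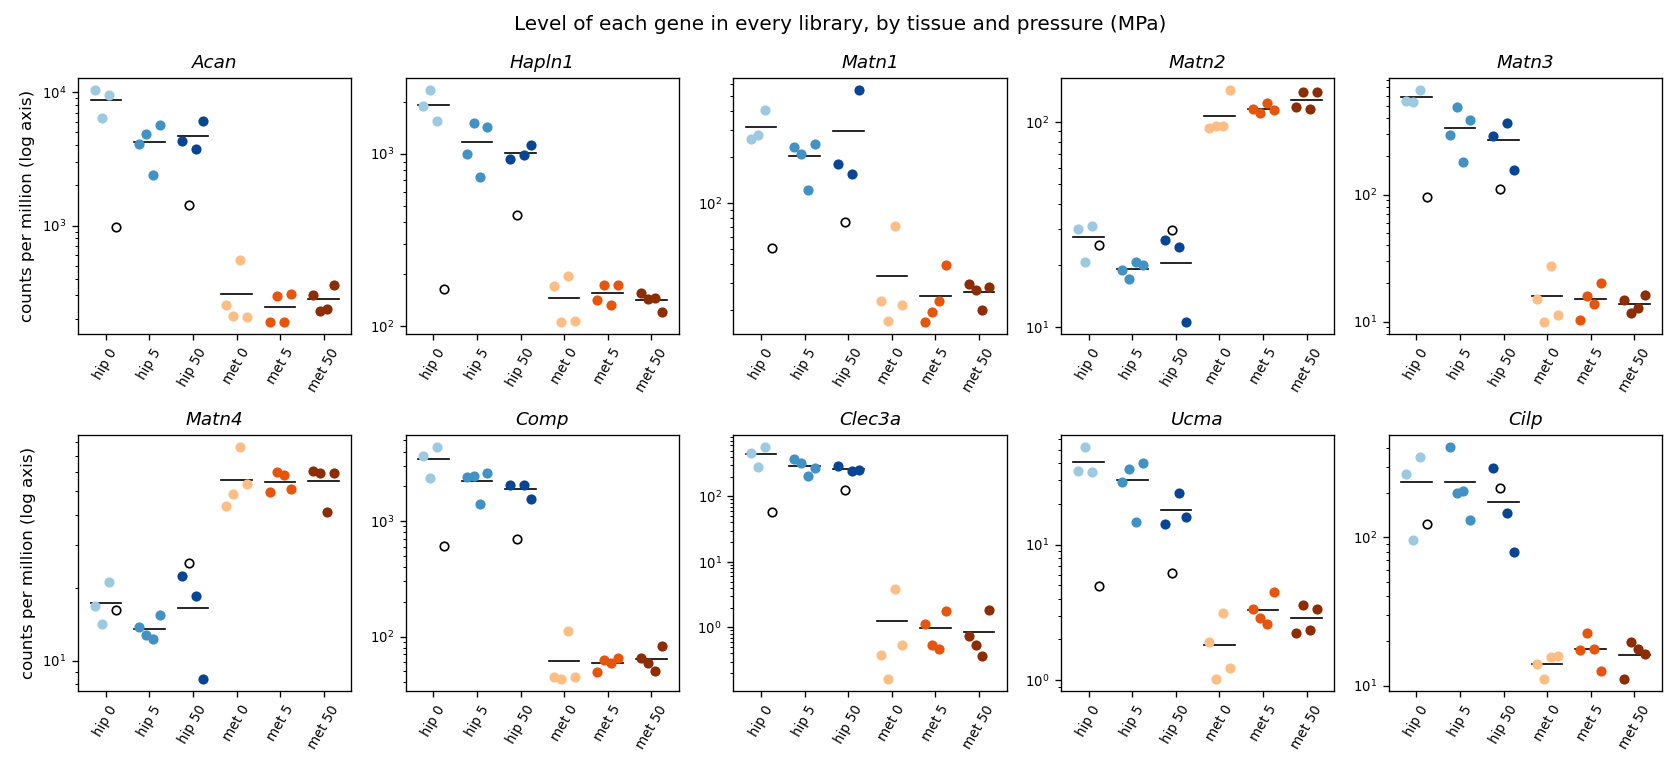
Level of each of the 10 genes in every library, in CPM on a log axis, by tissue (hip or met) and pressure in MPa. Filled points are libraries in the tests, open points are HC4 and H502, and bars are means of the filled points. Matn2 and Matn4 lie higher in metatarsals and the other 8 genes lie higher in hip caps.

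Levels of different genes were compared per kilobase of transcript. With the median transcript length of each gene, Comp came first in hip cap controls at 6324 CPM per kilobase, then Acan at 1767 and Clec3a at 737.4. The library ranges of Clec3a and Hapln1, of Matn3 and Matn1, of Cilp and Ucma, and of Matn2 and Matn4 overlapped, so the order within those pairs is not settled. Matn4 came last at 7.74. With the longest transcript, Comp still came first at 1436 and Acan second at 1196, and their ranges overlapped. In metatarsal controls all 9 neighbouring pairs overlapped with the median length: Comp came first at 111.8 and Acan second at 61.5, while with the longest transcript Acan came first at 41.6 and Comp stood at rank 4 with 25.4. Clec3a came last in the metatarsals by either length, at 2.10.

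The tissue difference was repeated at each pressure, with other libraries. At 5 MPa all 10 genes were called in the directions seen in controls, against 37.9% of all genes, and at 50 MPa all 10 again, against 19.7%. For Acan the log2 difference was 4.11 (SE 0.36) at 5 MPa and 3.87 (SE 0.54) at 50 MPa. For Comp it was 5.24 (SE 0.31) and 4.62 (SE 0.47). Matn2 stayed lower in hip caps, with log2 differences of -2.59 (SE 0.20) and -2.70 (SE 0.27). Ucma had log2 differences of 3.17 (SE 0.34) and 2.55 (SE 0.55). At 50 MPa the calls leaned on M504, the metatarsal library of that group in the sequencing run of the hip caps. M504 was also the only unstranded metatarsal library, while the hip caps at 50 MPa were all unstranded. Apart from M504, run, library type and tissue thus differed together, and the part of each cannot be told apart. Without M504, 6 of the 10 were called, and Matn1, Matn4, Ucma and Cilp were not, though each kept its direction.

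**Figure D2:**
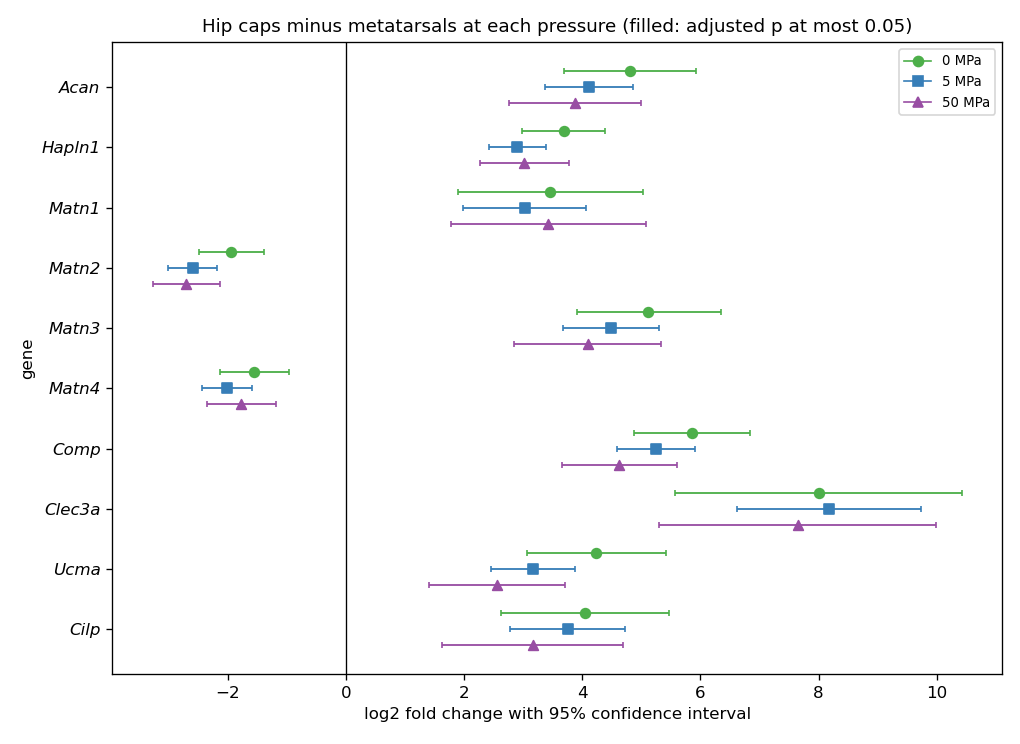
Log2 fold change of hip caps over metatarsals for each of the 10 genes at 0, 5 and 50 MPa, with 95% confidence intervals. Filled points have an adjusted p of at most 0.05, which all 30 do, and Clec3a has the widest intervals.

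Genes that make, bind or cut these proteins were read from lists in the same fit of the controls, where 14.1% of all genes were higher and 15.9% lower (29.9% called). Of 7 collagen partners, all were higher in hip caps, with a median log2 fold change of 3.35 beside 4.14 for the members and -0.08 for all genes. Col2a1, the main fibril collagen of cartilage, had 4.77 (SE 0.59). Of 23 genes of chondroitin sulfate synthesis tested, 14 were higher and 1 lower. Chst11, a chondroitin sulfotransferase, had 4.64 (SE 0.44) and Xylt1, which starts the chains, 3.39 (SE 0.29), while Chst3, another sulfotransferase, had -1.49 (SE 0.25).

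Among 14 relatives of the aggrecan and link protein genes and hyaluronan genes tested, 3 were higher and 1 lower, near the share of all genes. Cemip, a hyaluronan-degrading protein, had a log2 fold change of 6.02 (SE 0.40), and Vcan, the versican gene and a close relative of Acan, had -3.82 (SE 0.30). Of 7 relatives of COMP, CILP and CLEC3A, 5 were higher and 2 lower, from 5.83 (SE 0.71) for Cilp2 to -3.66 (SE 0.72) for Clec3b. Of 24 proteases and inhibitors, 7 were higher and 7 lower. Mmp13, a collagenase, had 5.50 (SE 0.73) and Adamts15, a metalloprotease that can cleave aggrecan, had -5.43 (SE 0.48). Of 17 transcription factors, 10 were higher and 3 lower, with Foxa2 at 4.73 (SE 0.44) and Sox11 at -5.25 (SE 0.33).

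The next comparisons asked what 5 MPa and 50 MPa did in hip caps. All 10 genes had negative log2 fold changes at 5 MPa, and none was called, against 0.0188% of all genes. Their median was -0.60, beside 0.01 for all genes, of which 49.1% were below 0. No member had an unadjusted p under 0.05, against 14.8% of all genes, and by DESeq2 none was called either. All 4 hip caps at 5 MPa were sequenced in a different run from the hip cap controls used. HC4, the control left out, was in the run of the hip caps at 5 MPa. This contrast thus rests on a run term estimated from the metatarsals, where only MC1 and M504 were in the run of the controls used. The groups also differed in other ways. The 4 superficial zone markers summed to 5210 to 10720 CPM at 5 MPa against 2556 to 4457 CPM in controls, the 5 hypertrophic chondrocyte markers to 6737 to 8578 CPM against 9118 to 10490 CPM, and the 5 Schwann and nerve markers to 55.97 to 82.4 CPM against 113.3 to 196.2 CPM. No tested marker of these lists was called, and their median log2 fold changes were 0.01, -0.11 and -0.9 in that order. The superficial zone sum thus did not reflect a rise shared by its 4 markers. Protein-coding genes took 48.6% to 65.8% of counts against 33.9% to 44.6%, and mitochondrial genes 2.53% to 3.26% against 0.114% to 2.05%. The part of these in the result was not tested.

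Aggrecan at 5 MPa was at 4071, 4866, 2379 and 5652 CPM in H51 to H54, all below the 6417 CPM of the lowest control used. Its log2 fold change was -1.05 (SE 0.52, adjusted p = 0.348). Hapln1 was at 1002, 1499, 730.2 and 1424 CPM, also below every control used, with -0.61 (SE 0.34, adjusted p = 0.413). Matn1 and Matn3 were the other members with no overlap, at 121.5 to 242.9 CPM and 178.8 to 486.7 CPM, so 4 of the 10 lay wholly below the controls used, against 7.85% of all genes. HC4, the control left out, lay below every hip cap at 5 MPa for each of these 4 genes. Comp, at 2429, 2483, 1401 and 2630 CPM, overlapped the controls used, with -0.75 (SE 0.43). Ucma, at 29.05, 36.35, 14.79 and 40.19 CPM, and Clec3a, at 377.5, 328.3, 201.3 and 272.6 CPM, overlapped them too, with -0.15 (SE 0.60) and -0.28 (SE 1.16). Cilp had the value nearest 0, with -0.05 (SE 0.67), and H51 held the highest Cilp value of any library, 407.1 CPM. Matn2, at 17.08 to 20.72 CPM, and Matn4, at 12.32 to 15.43 CPM, had -0.59 (SE 0.31) and -0.57 (SE 0.32). H53 was the lowest of its group for Acan, Hapln1, Matn1, Matn3, Matn4, Comp, Clec3a and Ucma. In that library the chondrocyte markers summed to 19130 CPM, against 31340 to 47210 CPM in the other hip caps at 5 MPa, and the tendon, perichondrium and fibroblast markers to 9227 CPM against 1285 to 2942 CPM. H53 also held the highest sums of its group for several other lists, with H51 next. Macrophage markers summed to 672.6 CPM against 191.7 CPM in H51, neutrophil markers to 155.1 against 33.76 and endothelial markers to 249.6 against 95.55. Osteoblast markers summed to 6572 CPM against 2556 CPM in H51, osteoclast markers to 724.8 against 461.9 and erythroid markers to 26.44 against 12.98. The part of all these in the result was not tested. When HC4 and H502 were put back, the median became 0.32 and 8 of the 10 turned positive, Acan to 0.17.

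At 50 MPa all 10 genes were again below 0, with a median log2 fold change of -0.92 beside 0.02 for all genes. One was called, Comp, against 5.18% of all genes (1.86% lower). Comp was at 2063, 2058 and 1545 CPM in H501, H503 and H504, all below the lowest control used at 2383 CPM (HC4, left out, was at 613.3 CPM). Its log2 fold change was -1.35 (SE 0.38, adjusted p = 0.0455 by edgeR), or 2.55-fold lower. The call sat close to the threshold: it was lost in 8 of 12 other settings, with adjusted p up to 0.446, and in 16 of 22 fits that left out 1 library, with adjusted p up to 0.315, while the direction held in all of them. Of those 22 fits, the call was kept without HC2, H53, H54, MC2, MC3 or MC4. Without batch terms the value was -0.88. Within the 1 sequencing run that held these libraries, the value was -0.87 (adjusted p = 0.446). The hip caps at 50 MPa were all unstranded libraries, and of the controls only HC3 was.

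**Figure D3:**
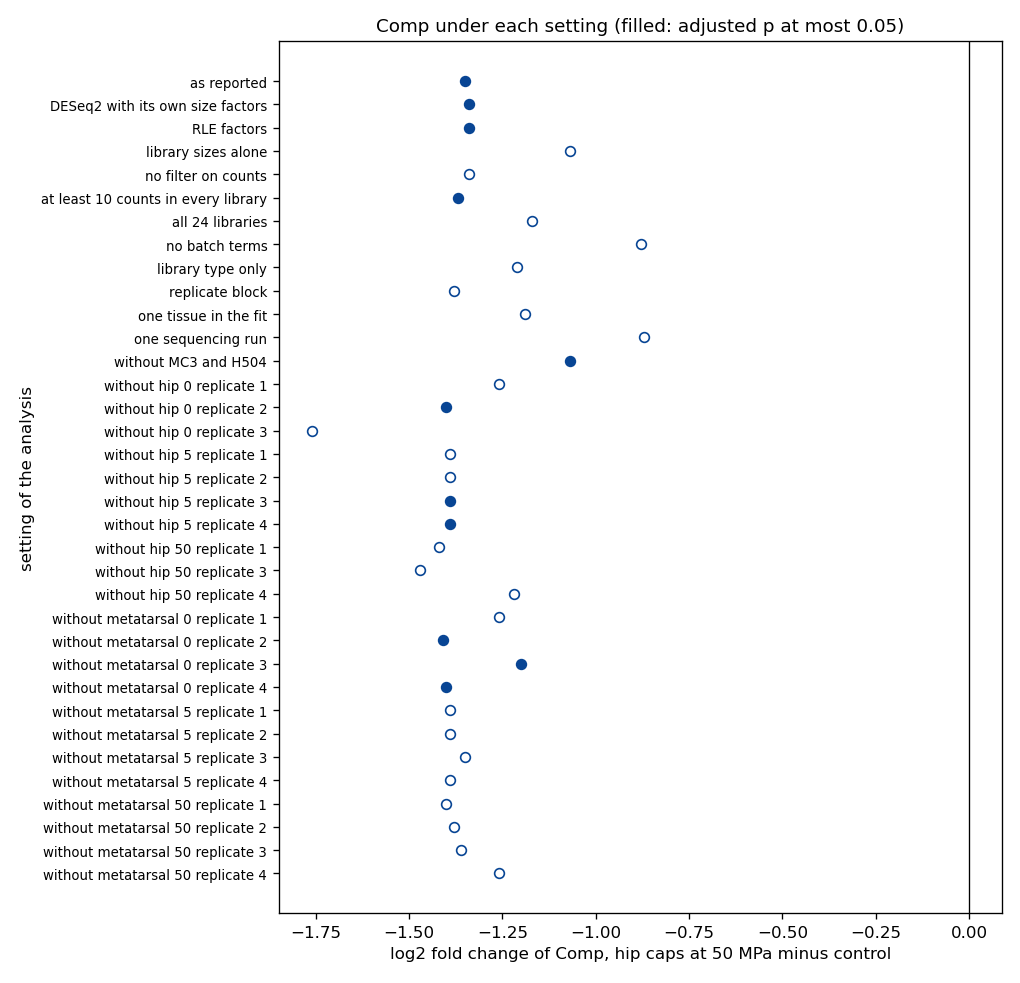
Log2 fold change of Comp in hip caps at 50 MPa over control under each setting of the analysis. Filled points have an adjusted p of at most 0.05, and every value lies between -1.76 and -0.87.

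With Comp, 5 of the 10 lay wholly below the controls used at 50 MPa, against 7.56% of all genes. HC4, the control left out, lay below every 50 MPa hip cap used for each of these 5 genes, with Acan at 977.8 CPM and Hapln1 at 163.6 CPM. That separation thus holds only without HC4. Acan was at 4331, 3734 and 6066 CPM, with a log2 fold change of -1.18 (SE 0.46, adjusted p = 0.130). Hapln1 was at 934.8, 986.0 and 1118 CPM, with -0.57 (SE 0.31, adjusted p = 0.283). Among the 3 libraries used, Hapln1 had the narrowest spread of the 10, with a coefficient of variation of 9.31%, close to the 9.60% of Clec3a. With H502 put back, Hapln1 was at 33.9% and Clec3a at 31.1%. Matn3 was at 286.7, 366.8 and 154.7 CPM, with -1.32 (SE 0.48, adjusted p = 0.109), and DESeq2 called it as well as Comp (adjusted p = 0.0457). Ucma was at 14.13, 23.85 and 16.09 CPM, with -1.0 (SE 0.47, adjusted p = 0.210).

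The remaining members overlapped their controls at 50 MPa. Clec3a was at 290.9, 245.3 and 249.8 CPM, with -1.45 (SE 0.81, adjusted p = 0.311), and Cilp at 292.2, 145.4 and 79.23 CPM, with -0.83 (SE 0.58, adjusted p = 0.422). Library H504 stood apart in the matrilins. It was highest for Matn1, at 544.7 CPM against 178.8 and 153.9 CPM in H501 and H503, and lowest for Matn2, at 10.52 against 26.47 and 24.54 CPM, and for Matn4, at 8.36 against 22.36 and 18.51 CPM. In H504 the 5 hypertrophic chondrocyte markers summed to 17370 CPM, against 9318 and 8283 CPM in H501 and H503, and 27.5% of its counts were from protein-coding genes. The part of these in the result was not tested. The chondrocyte markers, none of them members, summed to 27820 to 34100 CPM at 50 MPa, wholly below the controls used, while HC4 stood at 8318 CPM. Of the other markers, 6 of osteoclasts summed to 250.7 to 814 CPM against 133.4 to 242.3 CPM in controls, and 10 of skeletal muscle to 29.01 to 46.31 CPM against 9.51 to 15.6 CPM, with Myog at 0 in both groups and Tnnc2 at 0 in controls, so both sums lay wholly above the controls used. The 5 Schwann and nerve markers, at 61.29 to 72.73 CPM against 113.3 to 196.2 CPM, lay wholly below. HC4 was at 2201 CPM for osteoclast, 66.73 CPM for skeletal muscle and 49.56 CPM for Schwann and nerve markers, so these separations too hold only without it. Tested singly, 0 of 6 osteoclast markers were called. Of 10 skeletal muscle markers 1 was higher, and of 4 Schwann and nerve markers tested 1 was lower. The median log2 fold changes were 1.47, 1.46 and -0.56 in that order. The part of these in the result was not tested.

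Of the 92 related genes tested, 5 were called in hip caps at 50 MPa (5.43%), close to the 5.18% of all genes. None of the 7 collagen partners was, although their median was -1.27. Clec11a, a relative of Clec3a, was lower (log2 -1.67, SE 0.23, adjusted p = 0.00355), as were Chpf2, a chondroitin synthesis gene (-0.79, SE 0.17, adjusted p = 0.0163), and Sox9, a master factor of chondrocytes (-1.23, SE 0.31, adjusted p = 0.0302). Vcan was higher (1.51, SE 0.33, adjusted p = 0.0195), and so was Mmp12, a macrophage metalloprotease (2.66, SE 0.63, adjusted p = 0.0277). These 5 calls depended on the setting. Over all genes this contrast gave 0 calls with 1 tissue in the fit and 0 within 1 sequencing run. With all 24 libraries it gave 2, both higher, so Clec11a, Chpf2 and Sox9 were not called there. For Clec11a the interaction with tissue was called as well (-1.96, SE 0.27, adjusted p = 0.00375), but with all 24 libraries that interaction gave 0 calls over all genes. At 5 MPa no gene of the lists was called.

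In metatarsals neither pressure changed any member past the threshold, and no gene at all was called (0%). Unadjusted p was under 0.05 for 3.24% of all genes at 5 MPa and 3.89% at 50 MPa by edgeR, and DESeq2 called 13 and 9 genes, no member among them. The members' medians were -0.10 and -0.12, with single values from -0.55 to 0.92 at 5 MPa and from -1.10 to 0.68 at 50 MPa. Ucma had the lowest unadjusted p: it was at 3.37, 2.87, 2.59 and 4.46 CPM at 5 MPa and at 2.25, 3.61, 2.34 and 3.35 CPM at 50 MPa. Its log2 fold change at 5 MPa was 0.92 (SE 0.39, adjusted p = 1), and MC3, at 3.15 CPM, overlapped the pressurised libraries.

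Aggrecan in metatarsals was at 190.3, 295.9, 187.5 and 307.8 CPM at 5 MPa and at 300.4, 226.5, 234.5 and 355.1 CPM at 50 MPa, with log2 fold changes of -0.35 (SE 0.33) and -0.25 (SE 0.33). Comp was at 49.66, 62.71, 58.47 and 65.24 CPM and at 65.83, 58.42, 49.87 and 83.50 CPM, with -0.13 (SE 0.28) and -0.11 (SE 0.28). Both genes overlapped their controls, and both signs rested on MC3: without it Acan had 0.24 and 0.29, and Comp 0.42 and 0.40. In MC3 the chondrocyte markers summed to 4835 CPM, against 1852 to 2500 CPM in the other controls, and the part of that in the result was not tested. Hapln1 was at 133.5 to 174.5 CPM at 5 MPa and 120.8 to 156.5 CPM at 50 MPa, with 0.18 (SE 0.23) and 0.09 (SE 0.23). Matn2 and Matn4 are the matrilins that were higher in this tissue. Matn2 was at 111.0 to 123.4 CPM at 5 MPa and 116.1 to 140.2 CPM at 50 MPa, with 0.07 (SE 0.20) and 0.18 (SE 0.20). Matn4 was at 49.53 to 60.17 CPM and 41.16 to 60.74 CPM, with -0.11 (SE 0.20) and -0.12 (SE 0.21). Clec3a stayed at 0.471 to 1.79 CPM and 0.361 to 1.83 CPM, or 6 to 42 counts a library. Each of these overlapped its controls. The 95% interval for Acan reached from -1.03 to 0.34 at 5 MPa, and for Comp from -0.71 to 0.44, so changes within those intervals are not excluded by these libraries.

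**Figure D4:**
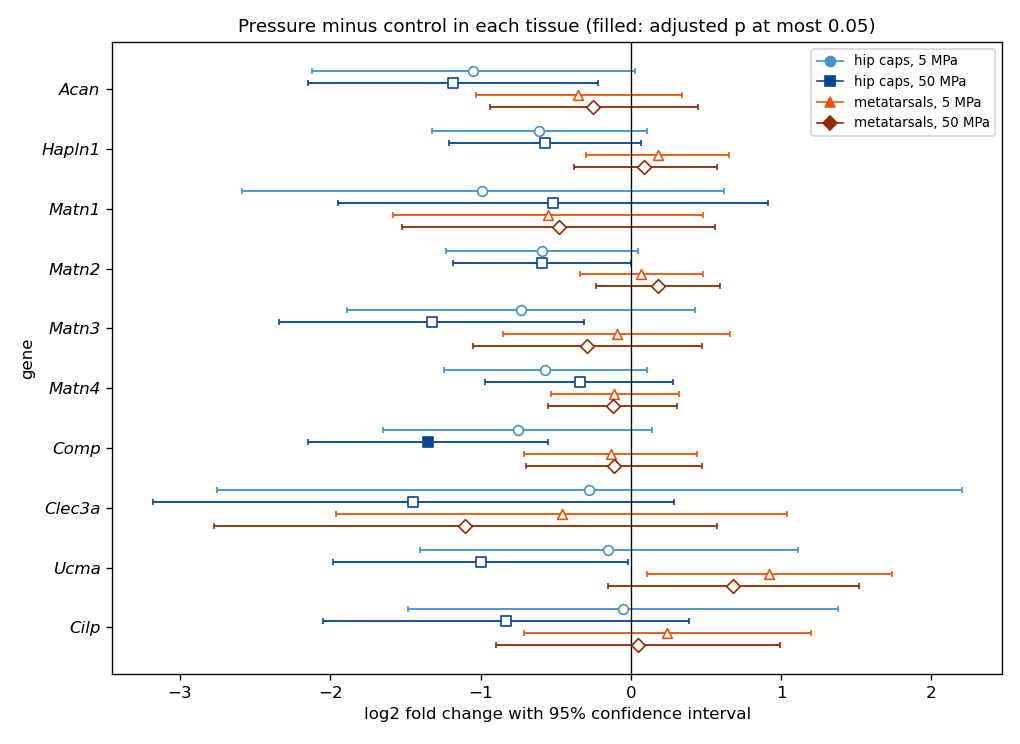
Log2 fold change of pressure over control for each gene in hip caps and metatarsals at 5 and 50 MPa, with 95% confidence intervals. All 20 hip cap values lie below 0 and only Comp at 50 MPa is filled, with an adjusted p of at most 0.05, while the metatarsal values lie on both sides of 0.

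Whether pressure acted differently in the tissues was tested by an interaction term. No member was called at 5 MPa (0.0188% of all genes) or at 50 MPa (0.132% of all genes). By unadjusted p under 0.05 there was 1 member at 5 MPa, against 11.2% of all genes, and 3 at 50 MPa, against 18.3%. The lowest p at 50 MPa was that of Ucma, with -1.68 (SE 0.57, adjusted p = 0.131), followed by Comp with -1.24 (SE 0.43, adjusted p = 0.138) and Matn2 with -0.77 (SE 0.31, adjusted p = 0.196). DESeq2 called Ucma here (-1.70, adjusted p = 0.0406), and leaving out MC3 and H504 together, a choice made after seeing the data, called Comp (-1.47, adjusted p = 0.0305). At 5 MPa Hapln1 had the lowest p, with -0.78 (SE 0.37, adjusted p = 0.437). The median over the members was -0.63 at 5 MPa and -0.82 at 50 MPa, beside 0.02 and 0.06 for all genes.

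The libraries left out of the tests were low in most of these genes. HC4 lay below every other hip cap control for 7 of the 10, with 977.8 CPM of Acan, 163.6 of Hapln1 and 613.3 of Comp, so that the mean of the other controls was 8.99-fold, 11.8-fold and 5.66-fold higher. Matn2 at 25.17 CPM, Matn4 at 16.19 and Cilp at 124.1 lay within the range of the others. H502 lay below the other hip caps at 50 MPa for the same 7 genes, with 1427 CPM of Acan and 694.4 of Comp, and above them for Matn2 and Matn4. The chondrocyte markers summed to 8318 CPM in HC4 and 13390 CPM in H502, and the osteoclast markers to 2201 CPM in HC4 against 133.4 to 242.3 CPM in the other controls. The part of these in the result was not tested.

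The genes whose pattern was nearest to a member were found by the root mean square difference in log2 CPM, centred on each gene's mean, over the 22 libraries among 15185 genes with a symbol. Nearest to Acan were Col2a1 (0.22), Scin (0.28) and Susd5 (0.30), and the nearest member was Matn3 (0.41). Nearest to Hapln1 were Zbtb20 (0.21), Cnmd (0.23) and Xylt1 (0.24), with Ucma the nearest member (0.42). Comp had Meltf (0.28), Prelp (0.36) and Vit (0.37), and its nearest member was Matn3 (0.44). Matn2 was followed by Carmil3, Nfatc4 and Eno2 (0.29 each), and its nearest member was Matn4 (0.38). Cilp had Clu (0.42), Dnajc22 (0.51) and Dcn (0.54), with Hapln1 as nearest member (0.75). Of these 5 members it had the largest distance to its nearest gene, and the other members were not searched. The tissue difference dominates these distances, and the points share libraries and scaling.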

How the data were processed

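RNA-seq of 24 libraries was analysed. Per the labels and the study's methods, reads were trimmed with Trim Galore 0.6.5 (minimum quality 20), quantified with kallisto against GRCm39 transcripts and summed to genes with tximport; the deposited values are estimated counts per gene, not normalized, and 27.0% of them are not whole. Read-level depth beyond these totals is not given in the sources used here. Estimated counts were rounded. After filterByExpr on the 6 groups and TMM scaling, a model was fitted in edgeR 4.0.16 (R 4.3.3; quasi-likelihood, robust) with group, sequencing run and library type as terms on 22 libraries, without HC4 and H502 as in the study. P-values were two-sided and Benjamini-Hochberg adjusted over 21283 genes, with a threshold of 0.05; standard errors are the log2 fold change over the root of F. CPM (counts scaled to 1000000 per library) uses TMM-scaled library sizes, and log2 CPM a prior count of 2. The sequencing run (9 and 15 libraries) was read from the study's sample heat map and its split differs from the one in the methods. Libraries of a hip cap group came from separate mice; for metatarsals the labels name pools only, so p-values there measure the spread between pools. Names, lengths and positions came from the GENCODE GRCm38 annotation, which is not the build of the counts. All 10 members were named in every comparison; of each related list, at most the 2 highest and 2 lowest called genes. Members and lists were chosen with earlier results of these data known. The fit was tested on simulated counts. Alternatives (DESeq2 1.42.0, scaling, filters, batch terms, libraries) are described at the end.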

Additional observations from a re-analysis of the deposited data

Results flagged for a closer look

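In groups of 4 libraries, a library was singled out where its gap to the nearest other took a share of the group's range above Dixon's 95% critical value. Of 60 combinations of gene and group, 7 met this, and chance alone gives about 1 in 20. All 24 libraries entered this check, HC4 and H502 included, and neither of those met it. The check used CPM, where low values are bounded by 0, so it does not show that these libraries were like the others. MC3 accounts for 4 of the 7. It is a metatarsal control, with Acan at 553.8 CPM against 207.0 to 254.4 CPM in the other controls, Matn1 at 71.19 CPM against 17.06 to 22.97, Comp at 112.7 CPM against 42.53 to 45.01, and Clec3a at 3.888 CPM against 0.161 to 0.540. Matn2 was at 143.4 CPM in MC4, above 93.78 to 95.66 CPM in the other metatarsal controls. Matn4 was at 41.16 CPM in M503, below 59.31 to 60.74 CPM in the other metatarsals at 50 MPa. Comp was at 1401 CPM in H53, below 2429 to 2630 CPM in the other hip caps at 5 MPa.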

How the results depend on the processing

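Hip caps at 50 MPa gave 1 called member; it gave 2 by DESeq2 and 0 with library sizes alone, no count filter, all 24 libraries, library type as the only batch term, a replicate block, 1 tissue in the fit or 1 sequencing run, and 0 to 1 with a library left out. Without batch terms the 1 call was Hapln1 (-0.93, adjusted p = 0.0453) in place of Comp. Hip caps at 5 MPa gave 1 without batch terms (Acan, -1.05) and 1 with library type only (Hapln1, -0.83). The interaction at 50 MPa gave 1 by DESeq2 and 1 without MC3 and H504. The tissue difference at 50 MPa gave 6 to 10 with a library left out, and in controls 9 to 10. At 50 MPa it lost Ucma (1.74) and Cilp (2.23) with library sizes alone, and Hapln1 (2.14), Matn1 (2.55) and Ucma (1.65) with all 24 libraries. Over all genes, hip caps at 50 MPa gave 1102 calls, 0 to 2455 in other settings, 1 without HC3 and 2434 without HC2; hip caps at 5 MPa gave 4, and 1 to 2027; the interaction at 50 MPa gave 28, and 0 to 1349. In controls the tissue difference gave 6372 calls, and 4290 to 9453. Library sizes alone shifted the median of all genes to -0.97 in the tissue contrast of controls and cut the share of calls that were higher from 47.0% to 7.97%.

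Deviations from group means of same-numbered libraries correlated from -0.29 to 0.17 over 50 pairs (median 0.02). Over 151 pairs with different numbers the range was -0.34 to 0.47 (median 0). The pairs included hip caps with metatarsals, which cannot share an animal, and run and library type were not removed. This check therefore cannot exclude pairing within a tissue. With the replicate block, Comp at 50 MPa was -1.38 (adjusted p = 0.064), members called 0, and Cilp in metatarsals at 50 MPa turned to -0.11.

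Directions that turned in hip caps at 5 MPa: with all 24 libraries the median was 0.32, Acan 0.17, Hapln1 0.64, Matn1 0.19, Matn3 0.33, Comp 0.32, Clec3a 1.12, Ucma 1.11 and Cilp 0.43; with library sizes alone Clec3a 0.10, Ucma 0.30 and Cilp 0.46; Cilp 0.22 with library type only and 0.39 with 1 tissue; without MC3 and H504 Clec3a 0.60 and Ucma 0.13. In metatarsals at 5 MPa: with all 24 libraries the median 0.04, Matn3 0.07 and Comp 0.02; with library sizes alone 0.15, Matn3 0.16, Matn4 0.13 and Comp 0.11; without MC3 and H504 0.35, Acan 0.24, Matn1 0.27, Matn2 -0.01, Matn3 0.46, Matn4 0.09, Comp 0.43 and Clec3a 1.76. In metatarsals at 50 MPa: with library sizes alone the median 0.12, Matn4 0.12 and Comp 0.12; without batch terms Hapln1 -0.04 and Comp 0.07; without MC3 and H504 the median 0.28, Acan 0.29, Matn1 0.27, Matn3 0.21, Matn4 0.06, Comp 0.40 and Clec3a 0.91. In the interaction at 5 MPa: Clec3a -0.18 by DESeq2, -0.11 without batch terms and -1.17 without MC3 and H504; with all 24 libraries the median 0.27, Acan 0.35, Hapln1 0.27, Matn1 0.57, Matn3 0.26, Comp 0.30, Ucma 0.00 and Cilp 0.10. In the interaction at 50 MPa: with all 24 libraries Matn1 0.09 and Clec3a 0.04; Matn1 0.11 with library type only; without batch terms Matn1 0.24 and Clec3a 0.01.

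With 1 library left out, ranges that crossed 0 were, in hip caps at 5 MPa, Cilp -0.48 to 0.47, Ucma -0.47 to 0.16 and Clec3a -2.33 to 0.87; in metatarsals at 5 MPa, the median -0.27 to 0.35, Acan -0.54 to 0.24, Matn1 -0.88 to 0.27, Matn2 -0.02 to 0.27, Matn3 -0.32 to 0.45, Matn4 -0.22 to 0.09, Comp -0.33 to 0.42 and Clec3a -0.93 to 1.75; in metatarsals at 50 MPa, the median -0.26 to 0.28, Acan -0.42 to 0.29, Hapln1 -0.04 to 0.38, Matn1 -0.75 to 0.27, Matn3 -0.50 to 0.21, Matn4 -0.22 to 0.06, Comp -0.29 to 0.40, Clec3a -1.53 to 0.91 and Cilp -0.13 to 0.20; in the interaction at 5 MPa, Cilp -0.79 to 0.16 and Clec3a -1.71 to 1.5; and in that at 50 MPa, Matn1 -0.85 to 0.21, Matn4 -0.48 to 0.04 and Clec3a -2.73 to 0.37. The causes were not tested. The tissue differences kept their direction for all 10 members in every setting run. Of the ranks per kilobase, 19 of 60 moved with the longest transcript. Few counts limit Clec3a and Ucma in metatarsals.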
